A study of Mus musculus with 4 samples.

Results

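Lungs after 4 weeks of cigarette smoke were compared with lungs after 2 weeks of it, 1 pooled array at each duration, by taking the log2 signal of the later smoke pool minus that of the earlier one. Every array feature with 1 gene symbol in the platform annotation entered, 30604 of 65956, and the feature with the highest mean signal stood for its gene, which gave 30142 genes. The counts below are over the 18084 genes above a signal floor, the 40th percentile over genes of the mean log2 signal of all 4 pools (5.82), and 12585 of these are annotated as protein coding. Male mice of strain C57BL, with no genetic change named in the labels, breathed mainstream cigarette smoke or clean air from the age of 10 weeks, in sessions of 1 hour on 5 days of each week, up to 12 weeks (2 weeks of exposure) or 14 weeks (4 weeks of exposure) of age. Each group is a single mixture of whole lungs, from 5 mice for 2 weeks of smoke, 4 for 4 weeks of smoke and 5 for each clean-air group. The 2 clean-air pools share no array with the smoke pair and are set beside it, since they differ by the same 2 weeks of age. Neither pair has a replicate pool, so no difference has an error or a p-value, and "higher" and "lower" describe these pools only.

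Mainstream smoke brings particles, oxidants, reactive aldehydes and polycyclic aromatic hydrocarbons to the airways and alveoli. Alveolar macrophages, the resident phagocytes of the airspace, take up smoke particles and surfactant lipid and release chemokines and proteases, and further macrophages and lymphocytes gather in the lung as exposure goes on. Cells answer damaged proteins with chaperones induced by heat shock factor 1, aromatic hydrocarbons with enzymes such as Cyp1a1 induced by the aryl hydrocarbon receptor (AHR), and oxidants with genes driven by the transcription factor NRF2.

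The arrays were alike in their overall profile. Pearson correlations of log2 signal over all features lay between 0.993 and 0.996 for the 6 pairs of pools, and the median signals of the arrays lay between 58.8 and 61.7. Markers of lung were present in all pools: Sftpc (surfactant protein C), Scgb1a1 (club cell secretory protein), Ager (alveolar type 1 cells) and Pecam1 (endothelium) stood at the 98.3rd percentile of mean signal or above, and the cilium gene Tekt1 stood at percentile 61.7. Folds rest on the assumption that log2 values were raised with base 2 to give the linear signals. Had they been raised with base e, all log2 differences would shrink by the factor 0.69. Over the 18084 genes, 46 would then be 1.5-fold higher and 73 lower within smoke, not 245 and 323. With so few arrays, no value has a known precision.

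Between 2 and 4 weeks of smoke, 99 protein-coding genes were at least 1.5-fold higher and 39 at least 1.5-fold lower, which is 0.787% and 0.31% of the 12585 protein-coding genes. The 12 highest included the heat shock chaperones Hspa1a and Hsph1, the macrophage genes Gpnmb, Mmp12 and Marco and the glucocorticoid target Zbtb16, and the lower ones included the B cell genes Bank1 and Ms4a1 and the smooth muscle gene Myh11. Between the clean-air pools the same counts were 248 higher (1.97%) and 19 lower (0.151%), 267 in all (2.12%) against 138 in smoke (1.1%), so the smoke pair differed in fewer protein-coding genes than a pair without smoke. At 2-fold, 15 protein-coding genes were higher and 1 lower in the smoke pair, against 38 and 5 in the clean-air pair. The median difference over protein-coding genes was -0.01 in smoke and 0.04 in clean air.

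Over all 18084 genes, 245 were higher (1.35%) and 323 lower (1.79%) in the 4-week smoke pool, 568 in all (3.14%). Here 43.1% of the differing genes were higher, but this split depended on the scaling, with 28.7% after centring each array on its median, 53.6% after cyclic loess and 61.5% after quantile normalization. In clean air 740 genes differed (4.09%), 334 higher (1.85%) and 406 lower (2.25%). Most of the lower calls in smoke were not established protein-coding genes: 262 of the 323 had no match in the RefSeq table, and 115 shared all 4 values with another gene, in 14 sets of identical values. The account below is therefore of protein-coding genes unless stated. Beside the counts within gene lists stand the shares over all protein-coding genes. These were 0.787% higher and 0.31% lower in smoke, and 1.97% higher and 0.151% lower in clean air.

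**Figure D1:**
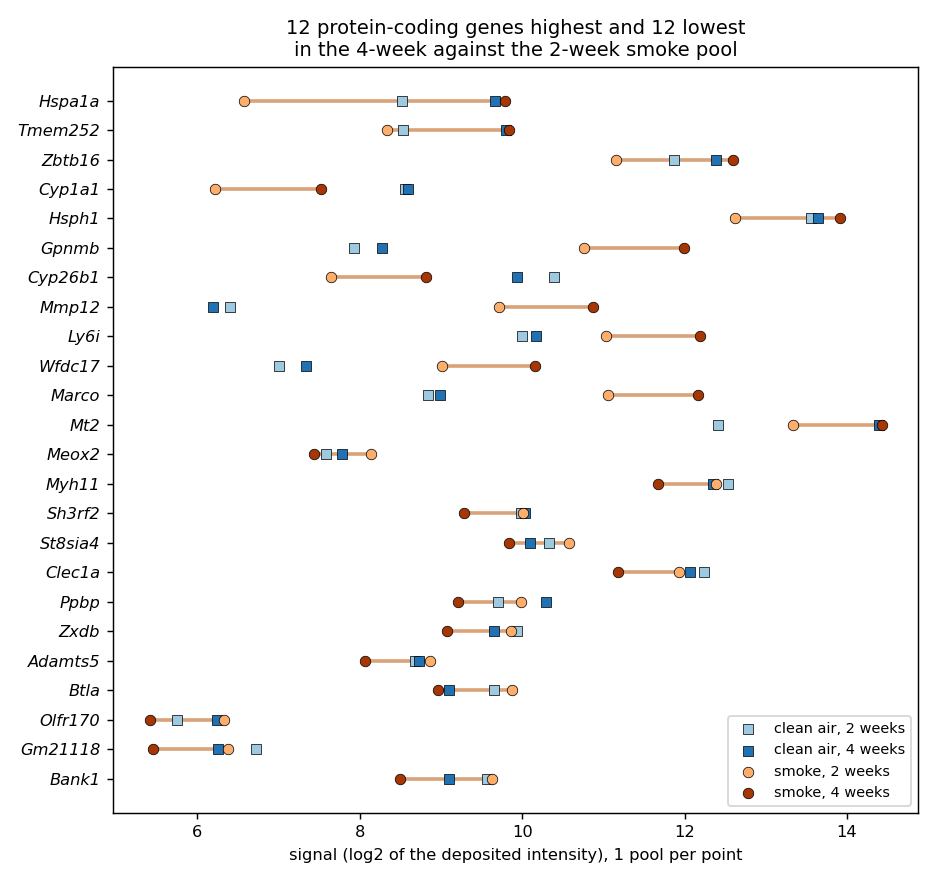
Log2 signal of the 12 protein-coding genes highest and the 12 lowest in the 4-week against the 2-week smoke pool; each point is 1 pool (circles smoke, squares clean air), and the bar joins the smoke pools. For Hspa1a, Hsph1 and Zbtb16 the 2-week smoke pool lay below both clean-air pools, while for Gpnmb, Mmp12, Wfdc17 and Marco both smoke pools lay above both clean-air pools.

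The 99 higher genes held at least 2 kinds of pattern when all 4 pools were read together. In 46 of them both smoke pools lay above both clean-air pools, with the 4-week smoke pool the highest, and in 34 the 2-week smoke pool was the lowest of the 4, so that the later smoke pool stood above a low value at 2 weeks. Over all protein-coding genes these shares were 17.1% and 15.1%; choosing genes by their smoke difference fixes part of this order, and nothing is read from the contrast. The 4-week smoke pool was the highest of the 4 in 81 of the 99 higher genes and the lowest in 38 of the 39 lower genes.

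The clean-air pair was used to see which of these differences also occur without smoke. Of the 99 protein-coding genes higher in smoke, 29 were also at least 1.5-fold higher in the 4-week clean-air pool, which is 29.3% of the smoke list and 11.7% of the clean-air list of 248, where 1.97% of all protein-coding genes were higher. By sign, 88 of the 99 were above 0 in clean air, as were 59.2% of all protein-coding genes, and 19 differed by under 1.1-fold there. Of the 39 lower in smoke, 28 were below 0 in clean air and none was among the 19 lower there; with 0.151% of protein-coding genes lower in clean air, nothing is read from that absence. Across protein-coding genes, the smoke and clean-air differences had a Pearson correlation of 0.45; this is across genes, which are not independent replicates.

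The genes higher in both pairs were led by Hspa1a, Tmem252 and Mt2. Tmem252, which encodes a small transmembrane protein, gave 324 in the 2-week and 915 in the 4-week smoke pool, and 370 and 891 in the clean-air pools of the same ages. Lrg1, a leucine-rich glycoprotein of acute inflammation, gave 863 and 1801 in smoke and 309 and 1094 in clean air, a 2.09-fold against a 3.54-fold difference. For both genes each 4-week pool was above each 2-week pool. Lgals3bp, a secreted galectin-binding glycoprotein, was 1.95-fold higher in smoke and 2.25-fold higher in clean air, and Cdkn1a, the cell cycle inhibitor p21, 1.82-fold and 2.11-fold.

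**Figure D2:**
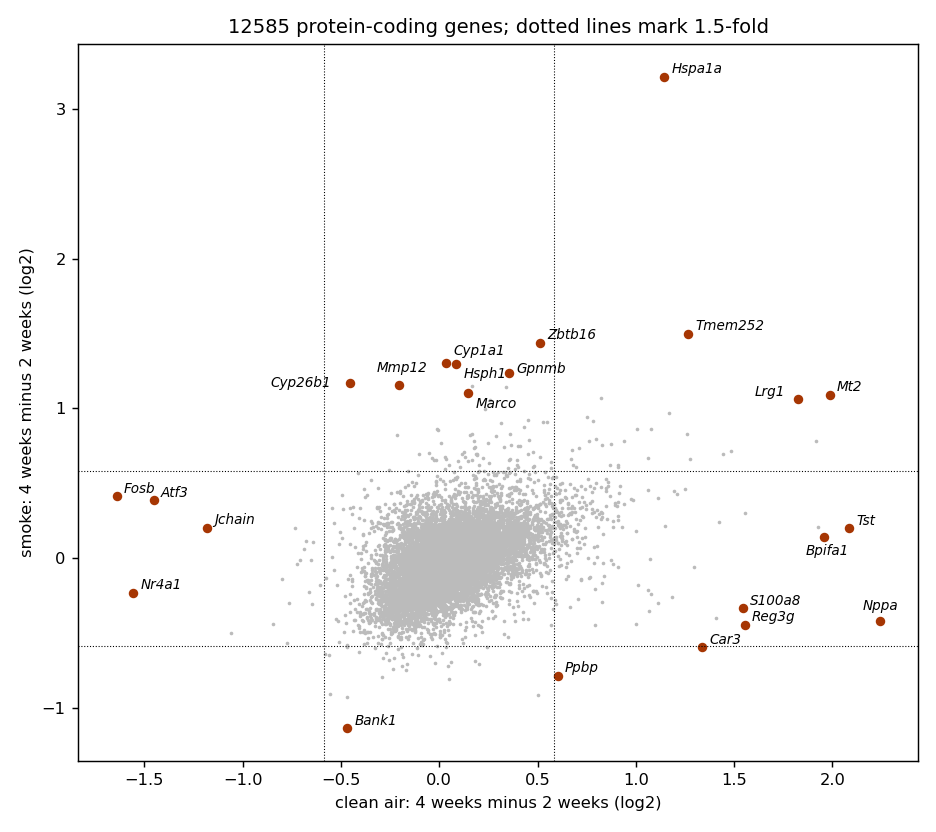
Difference between 4 and 2 weeks in the clean-air pools (x axis, log2) and in the smoke pools (y axis, log2) for 12585 protein-coding genes, with dotted lines at 1.5-fold. Hspa1a is highest in smoke and also higher in clean air; Cyp1a1, Hsph1 and Marco lie near 0 in clean air; Nppa, Tst and Bpifa1 differed mainly in clean air.

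Heat shock chaperones made up 7 of the 99 higher genes. Of 12 heat shock chaperone genes above the floor, 7 were at least 1.5-fold higher in the 4-week smoke pool and none was lower, all 12 were above 0, and the list's median difference was 0.69 on the log2 scale, against 0.787% of protein-coding genes higher and a median of -0.01 over them. In clean air 3 of the 12 were higher and the median was 0.19. Hspa1a, the inducible cytosolic Hsp70, gave 95.2 after 2 weeks and 884 after 4 weeks of smoke, with 368 and 814 in the 2-week and 4-week clean-air pools. The 2-week smoke pool was thus the lowest of the 4 and the 4-week smoke pool only slightly above its clean-air counterpart, so that the 9.29-fold difference within smoke runs from a level below clean air to a level near it. Hspa1a has a near-identical neighbour, Hspa1b, whose 250 upstream bases differ from it at 3 positions; the feature annotated to both was not used, and how far the signal of the feature annotated to Hspa1a alone includes its neighbour is uncertain.

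Hsph1, the Hsp110 nucleotide exchange factor that works with Hsp70, gave 6286 and 15445 in the 2-week and 4-week smoke pools and 12011 and 12750 in clean air. It was 2.46-fold higher at 4 weeks in smoke and 1.06-fold higher in clean air, and here too the 2-week smoke pool was the lowest. Hspb1, the small heat shock protein Hsp27, was 1.89-fold higher in smoke (591 to 1117) and 1.72-fold higher in clean air (730 to 1253). Bag3, a co-chaperone of Hsp70 in selective autophagy, was 1.69-fold and 1.77-fold higher. Dnajb1, an Hsp40 that delivers clients to Hsp70, was 1.68-fold higher in smoke, Hspe1, the mitochondrial Hsp10, 1.62-fold and the Hsp90 co-chaperone Chordc1 1.61-fold, and these were at most 1.32-fold higher in clean air. The constitutive Hspa8, the cytosolic Hsp90 gene Hsp90aa1, the mitochondrial Hsp60 gene Hspd1, the lens and muscle chaperone Cryab and the Hsp110 relative Hspa4l had smoke differences of 0.14 to 0.36. In 12 of the 12 members the 2-week smoke pool was the lowest of the 4 pools, narrowly so for Bag3 and Cryab. It was the lowest in 15.1% of all protein-coding genes. All 12 were above 0 in smoke, which fixes part of this order, so nothing is read from the contrast.

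Heat shock factor 1 binds inverted repeats of GAA, and the upstream sequences of chaperones are shown for that reason. The letters GAANNTTC, searched on both strands (the motif is its own reverse complement), occur in the 250 bases before a start of 4 of the 9 list members with an entry in the RefSeq promoter table (GRCm38.p6), namely Hspa1a, Hspb1, Hspd1 and Hspe1, and of 3 of the 7 members that were higher. Over the 27025 genes of the table the share is 7.73%. The sequences below run 5′ to 3′ toward the transcription start with matches in capitals: Hspa1a at chr17:34972157-34972406 (minus strand) with 1 match, Hspb1 at chr5:135887669-135887918 (plus strand) with 2, Hspe1 at chr1:55087898-55088147 (plus strand) with 1, and Hsph1 at chr5:149636337-149636586 (minus strand), the first of its 2 starts in the table, with none.
Hspa1a: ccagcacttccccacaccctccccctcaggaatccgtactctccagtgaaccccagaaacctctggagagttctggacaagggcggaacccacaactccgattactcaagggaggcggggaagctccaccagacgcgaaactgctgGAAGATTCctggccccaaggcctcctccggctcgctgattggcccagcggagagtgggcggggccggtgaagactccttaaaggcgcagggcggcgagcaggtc
Hspb1: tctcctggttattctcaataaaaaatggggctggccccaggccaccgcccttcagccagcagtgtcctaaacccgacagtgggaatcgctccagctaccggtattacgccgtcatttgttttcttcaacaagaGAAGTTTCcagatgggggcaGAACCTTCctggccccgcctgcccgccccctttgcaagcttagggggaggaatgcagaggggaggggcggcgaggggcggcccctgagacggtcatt
Hspe1: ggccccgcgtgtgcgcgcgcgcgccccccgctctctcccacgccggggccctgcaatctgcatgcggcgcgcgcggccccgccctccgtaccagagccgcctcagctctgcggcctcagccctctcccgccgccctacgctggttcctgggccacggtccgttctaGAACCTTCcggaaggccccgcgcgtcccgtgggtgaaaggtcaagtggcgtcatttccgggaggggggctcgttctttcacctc
Hsph1: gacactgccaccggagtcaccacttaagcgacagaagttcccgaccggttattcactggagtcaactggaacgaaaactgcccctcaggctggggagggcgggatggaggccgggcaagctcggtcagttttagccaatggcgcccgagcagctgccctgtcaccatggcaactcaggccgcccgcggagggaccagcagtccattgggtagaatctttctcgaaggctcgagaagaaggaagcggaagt
The match in Hspa1a begins 104 bases before the start, those in Hspb1 at 117 and 97 bases and that in Hspe1 at 84 bases. Hsph1, with the second largest chaperone difference, holds no match of these letters in this window, and a match is a description of the letters only. The opposite order of the inverted repeat, with TTC before GAA, was not searched. The Hsph1 sequence above includes that order, as ttctcgaa, so Hsph1 is not shown to lack an inverted repeat.

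Some of the genes known to respond to glucocorticoids and fasting were higher at 4 weeks in both exposures. Of 17 above the floor, 7 were at least 1.5-fold higher in smoke and 9 in clean air (0.787% and 1.97% of protein-coding genes were). None was lower in either, and the medians were 0.46 and 0.60. In 11 of the 17 the 2-week smoke pool was the lowest of the 4, as in 15.1% of all protein-coding genes. A positive smoke difference fixes part of this order. Zbtb16, a zinc finger repressor that is a classical glucocorticoid target, gave 2285 and 6185 in the 2-week and 4-week smoke pools and 3745 and 5350 in clean air, a 2.71-fold and a 1.43-fold difference. Mt2, a metal-binding metallothionein, differed more in clean air, with 10350 and 22061 in smoke and 5461 and 21622 in clean air. The 4-week pools of Mt2 were thus nearly level and the 2-week smoke pool already stood above its control. Angptl4, an inhibitor of lipoprotein lipase induced by fasting, was 1.82-fold higher in smoke and 2.01-fold higher in clean air, Fkbp5, an Hsp90 co-chaperone of the glucocorticoid receptor, 1.53-fold and 1.87-fold, the clock and glucocorticoid target Per1 1.72-fold and 1.69-fold, and Ddit4, an inhibitor of mTORC1 signalling, 1.69-fold and 1.29-fold. Among 16 circadian clock genes, Per1 and Nfil3 were higher in smoke (Nfil3 at 0.54, under the threshold, with 32 added to each signal), and the core activator Arntl, at 576 and 494 in smoke and 1218 and 1251 in clean air, was at -0.22 in smoke; the clock list's median was -0.02. The part of time of day or feeding in these values was not tested.

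The macrophage genes Marco, Gpnmb and Mmp12 were higher at 4 than at 2 weeks of smoke and were above clean air at 2 weeks already. Marco, a scavenger receptor of alveolar macrophages, gave 2139 after 2 and 4588 after 4 weeks of smoke, against 460 and 509 in clean air. Gpnmb, a transmembrane glycoprotein of lipid-laden macrophages, gave 1739 and 4093 against 243 and 310. Mmp12, the macrophage metalloelastase, gave 839 and 1873 against 84.2 and 73.0. In all 3 genes both smoke pools were above both clean-air pools and the later smoke pool was above the earlier one, by 2.14-fold, 2.35-fold and 2.23-fold, while the clean-air difference was at most 1.28-fold either way. In whole lung, more macrophages and more RNA of these genes per macrophage cannot be told apart.

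The macrophage lists were uneven. Of 13 alveolar macrophage markers, 3 were at least 1.5-fold higher (Marco, Cd68 and Itgax), where 0.787% of protein-coding genes were, with a median of 0.27. In clean air 2 were higher (1.97% of protein-coding genes) and the median was 0.21. Itgax, the integrin CD11c, was 1.84-fold higher (2767 to 5086), and the lysosomal glycoprotein Cd68 1.92-fold higher in smoke (5031 to 9677) but also 1.68-fold higher in clean air. The marker Siglecf was under the threshold as reported and lay between 0.36 and 0.62 over the processing alternatives, and Atp6v0d2 was at 0.46. Some other markers differed less: the mannose receptor Mrc1 by 0.23, the surface protein Plet1 by 0.31, Pparg, the regulator of alveolar macrophage identity, by 0.17 and the fatty acid carrier Fabp5 by 0.04. The lipid droplet gene Cidec was at -0.21. Of 16 markers listed, these 13 were on the array under 1 symbol and all were above the floor.

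Of 13 markers of monocytes and interstitial macrophages, 4 were higher (0.787% of protein-coding genes were), none lower, and the median was 0.48. In clean air 3 were higher (1.97% of protein-coding genes) and the median was 0.23. The 4 were the complement genes C1qb, C1qc and C1qa, which together form the recognition molecule C1q, and Ms4a7; C1qa was at 0.56, under the threshold, after median centring, and with 32 added to each signal C1qa was at 0.55 and Ms4a7 at 0.57. C1qb was 2.10-fold higher (989 to 2079) and C1qc 1.87-fold (229 to 428), and in clean air they were 1.77-fold and 1.24-fold higher. The monocyte chemokine receptor Ccr2 had the lowest value of the list, with 405 and 317 in smoke and 213 and 246 in clean air.

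Lipid-laden macrophage genes were nearly all on the positive side by small amounts. Of 18, Gpnmb alone passed 1.5-fold, but 16 were above 0 (Cd9, at 0.04, lies below it after median centring) and the median was 0.41, against 0.09 in clean air. Ctsk, the collagen-degrading cathepsin K, gave 2873 and 4184 in smoke and 319 and 339 in clean air, a 1.46-fold difference between the smoke pools. Plin2, which coats lipid droplets, gave 10877 and 16272, a log2 difference of 0.58 just under the threshold. The lipid-sensing receptor Trem2, the tartrate-resistant phosphatase Acp5 and the lysosomal acid lipase Lipa had folds of 1.44, 1.45 and 1.32, under the threshold. Ctsk and Acp5 passed 1.5-fold after cyclic loess (0.62 and 0.60) and after quantile normalization (0.60 and 0.62). Plin2 lay between 0.40 and 0.62 over the processing alternatives. The cholesterol exporter Abca1 and the scavenger receptor Cd36 were below 0, at -0.15 and -0.14. Among 15 lysosome and proton pump genes, Cd68 and the carboxypeptidase Ctsz (1.62-fold) were higher and the median was 0.25.

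Wfdc17, Ly6i and Cyp26b1 were also among the 12 highest protein-coding genes. Wfdc17, a whey acidic protein-domain gene of activated macrophages, gave 516 and 1139 in smoke and 128 and 162 in clean air. Ly6i, a surface protein of the Ly6 family, gave 2099 and 4658 against 1023 and 1149. Both were at their highest in the 4-week smoke pool. The retinoic acid hydroxylase Cyp26b1 was different in level: it gave 201 and 452 in smoke against 1345 and 980 in clean air, so its 2.25-fold higher value at 4 weeks was still under both clean-air pools. Rgs1, a regulator of G protein signalling in leukocytes, was 1.81-fold higher and Mreg, melanoregulin, which acts in lysosome and phagosome traffic, 1.71-fold, and both differed by under 1.1-fold in clean air.

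**Figure D3:**
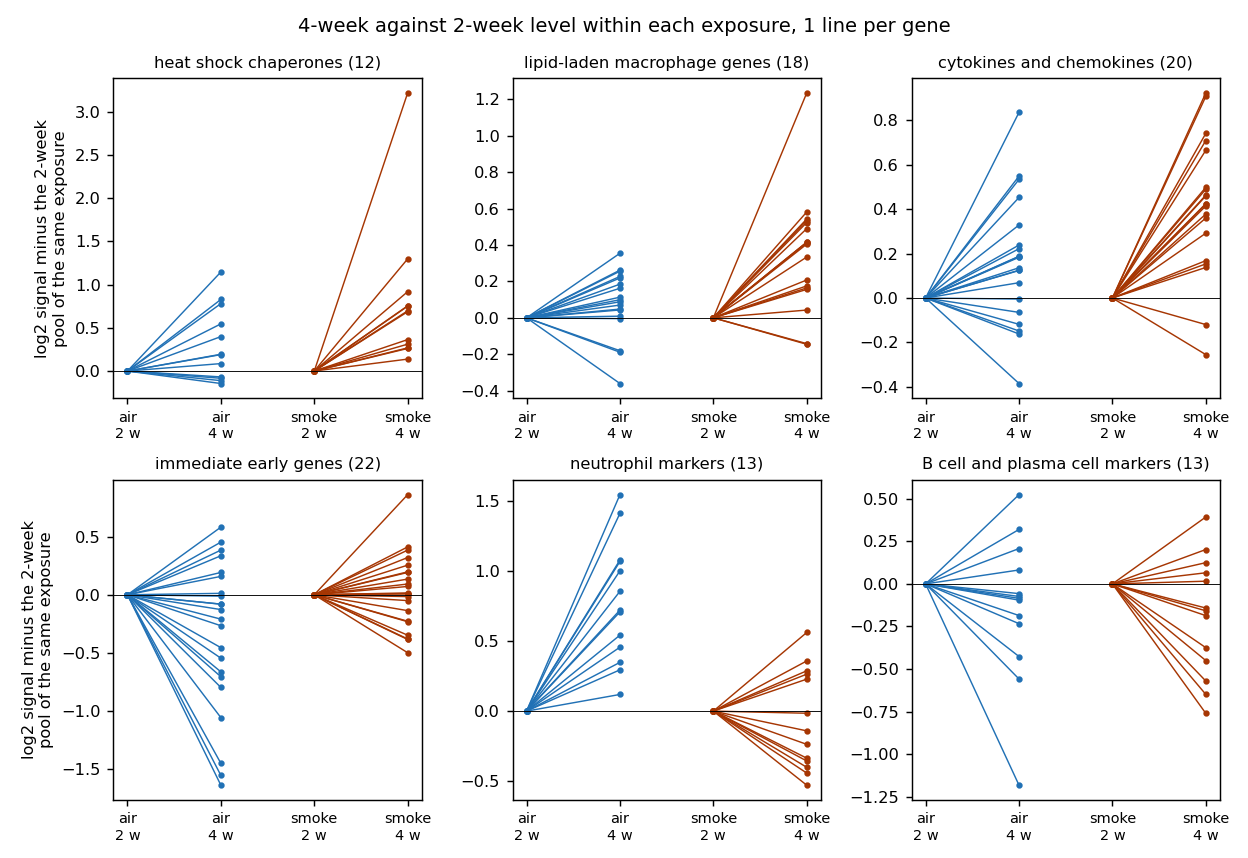
Log2 signal of each gene in the 4-week pool minus its 2-week pool, for clean air (blue) and smoke (brown), in 6 gene lists; 1 line is 1 gene and the 2-week pools are set to 0. All 12 chaperones lie above 0 in smoke; neutrophil markers lie above 0 in clean air and on both sides of it in smoke; immediate early genes reach -1.64 (Fosb) in clean air and -0.50 (Ccn1) in smoke.

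Several chemokine genes were higher too. Of 20 cytokine and chemokine genes above the floor, 5 were at least 1.5-fold higher (0.787% of protein-coding genes were) and none lower. In smoke 18 were above 0, and the median was 0.42. In clean air 1 was higher (1.97% of protein-coding genes) and the median was 0.16. Ccl9, a CCR1 ligand of macrophages, gave 2129 and 4039 in smoke and 636 and 870 in clean air (1.90-fold within smoke). Cxcl13, which attracts B cells through CXCR5, gave 1263 and 2371 against 791 and 1157 (1.88-fold). Ccl17, a CCR4 ligand that attracts T helper cells, gave 5649 and 9446 against 821 and 1031 (1.67-fold). For all 3, and for 18 of the 20 genes, both smoke pools were above both clean-air pools, as for 17.1% of all protein-coding genes. Ccl3, a chemokine made by macrophages, was 1.64-fold and Ccl2, the main CCR2 ligand, 1.59-fold higher. The alarmin Il33 and the inflammasome cytokine Il1b were the members below 0, at -0.26 and -0.12.

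Among 17 proteases and antiproteases, Mmp12 and Serpina3n were higher, none was lower and the median was 0.23, with 4 higher in clean air. Serpina3n, an acute phase inhibitor of serine proteases, was 1.58-fold higher in smoke and 1.59-fold higher in clean air. Of 13 acute phase and antimicrobial genes, 5 were higher (Cfb, Saa3, Pigr, Orm1 and Saa2), where 0.787% of protein-coding genes were, with a median of 0.41. In clean air 3 were higher (1.97% of protein-coding genes) and the median was 0.23. Cfb, factor B of the alternative complement pathway, gave 1058 and 2200 in smoke and 509 and 610 in clean air. Saa3, a local serum amyloid A, gave 258 and 514 against 58.7 and 68.9. Pigr, the receptor that carries IgA and IgM across epithelium, gave 9424 and 16646 against 3527 and 3937. These 3 genes were 2.08-fold, 2.00-fold and 1.77-fold higher at 4 weeks of smoke, with both smoke pools above both clean-air pools. The bactericidal lectin Reg3g and lactoferrin (Ltf) were below 0 in smoke, at -0.45 and -0.24, and at 1.55 and 1.08 in clean air.

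Of 20 interferon response genes, 4 were at least 1.5-fold higher (0.787% of protein-coding genes were), none lower, and the median was 0.32. In clean air 2 were higher (1.97% of protein-coding genes) and the median was 0.09. Irf7, the transcription factor that amplifies type I interferon, gave 187 and 352 in smoke and 156 and 224 in clean air. Bst2, the virus-tethering protein tetherin, gave 11828 and 19701 against 10068 and 16469, about the same difference in each exposure (1.67-fold and 1.64-fold). Oas2, a sensor of double-stranded RNA, was 1.58-fold and Ifi27l2a 1.52-fold higher, the latter with 1.62-fold in clean air. Ifi27l2a was at 0.55, under the threshold, after median centring, and with 32 added to each signal Oas2 was at 0.53 and Ifi27l2a at 0.45. Other well-known members were close to 0, Isg15 at 0.09, Cmpk2 at 0.09 and Gbp2 at -0.16, and Ifit2 was the lowest at -0.49. The interferon-stimulated response element core (GAAA, any 2 bases, GAAA, on either strand) was found upstream of 9 of the 14 members with a promoter entry and of 3.46% of all genes of the table. Of the 4 higher members 2 had an entry, and Bst2 held it; its 250 upstream bases at chr8:71537473-71537722 (minus strand) are shown with the 2 overlapping matches in capitals.
Bst2: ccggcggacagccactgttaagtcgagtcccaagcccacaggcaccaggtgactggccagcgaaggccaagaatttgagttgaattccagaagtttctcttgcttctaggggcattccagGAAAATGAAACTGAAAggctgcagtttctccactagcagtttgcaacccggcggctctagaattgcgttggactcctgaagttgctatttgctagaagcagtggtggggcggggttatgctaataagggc
The matches begin 130 and 124 bases before the start. They describe the letters in this window and say nothing of binding.

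Among genes of xenobiotic metabolism, Cyp1a1 was higher at 4 weeks of smoke. Cyp1a1, the AHR-induced enzyme that oxidises aromatic hydrocarbons, gave 74.5 and 184 in smoke and 378 and 387 in clean air. The 4-week smoke pool was 2.47-fold above the 2-week pool and both were below both clean-air pools. Of 7 AHR targets on the array 5 were above the floor, and the 4 besides Cyp1a1 lay between -0.11 (Cyp1b1) and 0.24 (Nqo1); in clean air Aldh3a1, an aldehyde dehydrogenase, was the 1 higher member (1.53-fold). Of 23 NRF2 and glutathione genes, 2 were higher in clean air (1.97% of protein-coding genes were), with a median of 0.13. In smoke the median was 0.24 and 0.787% of protein-coding genes were higher. The list members higher in smoke were Gpx2, a glutathione peroxidase of epithelium (1.54-fold), and the glutathione transferase Gstp1 (1.53-fold). After median centring neither was at 1.5-fold, with 0.56 for Gpx2 and 0.55 for Gstp1, and Gpx2 was at 0.49 with 32 added to each signal. Haem oxygenase (Hmox1) gave 352 and 464 in smoke and the cystine carrier Slc7a11 194 and 233, neither at 1.5-fold. Of 13 unfolded protein response genes only Herpud1, a factor of endoplasmic reticulum degradation, was higher (1.57-fold), and Hspa5, the chaperone BiP, was at 0.25.

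None of 18 cell cycle genes above the floor differed 1.5-fold between the smoke pools. All 18 were above 0 in smoke, with a median of 0.21, while 5 were above 0 in clean air, with a median of -0.05. Over all protein-coding genes 46.9% were above 0 in smoke and 59.2% in clean air. In 17 of the 18 both smoke pools were above both clean-air pools, as in 17.1% of all protein-coding genes. Mki67, the proliferation antigen Ki-67, gave 1388 and 1722 in smoke and 711 and 577 in clean air. The replicative ribonucleotide reductase subunit Rrm2 gave 115 and 155 against 79.0 and 83.1, and the mitotic kinase gene Aurka 85.0 and 115 against 80.2 and 78.6. In these 3 genes both smoke pools were above both clean-air pools and the later one was highest. The smallest values of the list were those of the replication clamp Pcna, the checkpoint kinase Bub1 and the helicase subunit Mcm6, at 0.00, 0.00 and 0.01, and these 3 lie below 0 after median centring.

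**Figure D4:**
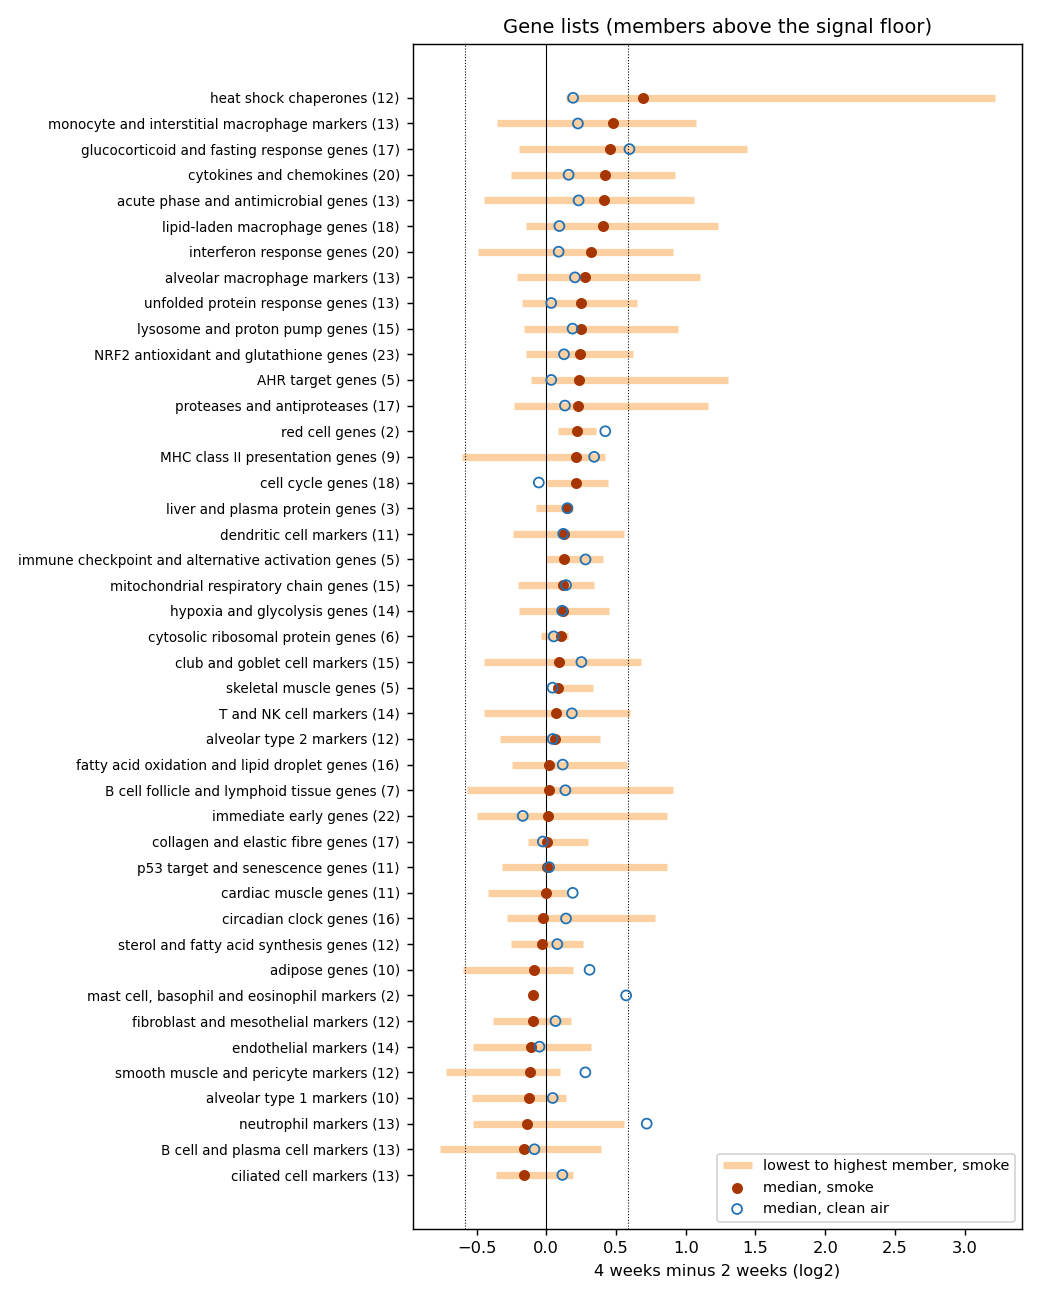
Difference between 4 and 2 weeks (log2) for 43 gene lists, with the number of members above the floor in brackets; filled points are medians in smoke, open points medians in clean air, and bars run from the lowest to the highest member in smoke. Heat shock chaperones have the highest smoke median, 0.69, and ciliated cell and B cell markers the lowest, -0.16 each.

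Some genes of B lymphocytes were among the lowest. Bank1, a B cell scaffold protein that links the antigen receptor to calcium release, was the lowest protein-coding gene, with 791 and 360 in smoke and 756 and 547 in clean air (2.20-fold lower in smoke, 1.38-fold lower in clean air). Btla, an inhibitory receptor of B and T cells, gave 941 and 501 against 808 and 550 (1.88-fold and 1.47-fold lower). In both genes each 4-week pool was below each 2-week pool. Of 13 B cell and plasma cell markers, 2 were lower, where 1.79% of all genes, 0.31% of protein-coding genes and 5.16% of other genes were. None was higher, 8 were below 0 and the median was -0.16, against 1 lower and a median of -0.08 in clean air. The 2 lower in smoke were the immunoglobulin heavy chain gene Ighm, not listed as protein coding (2071 to 1223 in smoke, 2083 to 1550 in clean air), and Ms4a1, which encodes CD20 (886 to 565, and 922 to 626). The complement receptor Cr2 was at -0.57, the antigen receptor signalling chain Cd79b at -0.45 and its partner Cd79a at -0.19, and the low-affinity IgE receptor Fcer2a at 0.02. The other 4 members above 0 are known for antibody secretion or plasma cells, Xbp1 at 0.39, Jchain at 0.20, Mzb1 at 0.12 and Sdc1 at 0.07. Ms4a1 was at -0.57, under the threshold, after cyclic loess and after quantile normalization. H2-Ob, a B cell modulator of antigen loading, was the single lower member of 9 MHC class II genes (1.52-fold), whose median was 0.21 (0.34 in clean air), and was at -0.55 after cyclic loess, -0.54 after quantile normalization and -0.53 with 32 added to each signal. Fcmr, the Fc receptor for IgM, was 1.57-fold lower with 344 and 219 in smoke, and just under the threshold, at -0.58, after quantile normalization or with 32 added. The B cell attractant Cxcl13 was higher in the same pair of pools. T and NK cell markers had a median of 0.07 with 1 of 14 higher (Cd4, 1.51-fold) and none lower, against 1 higher and a median of 0.18 in clean air. Cd4 was at 0.54 after median centring and 0.52 with 32 added to each signal, both under the threshold. In smoke 8 of the 14 were above 0 and 6 below, among the latter Klrd1 at -0.44, Cd8b1 at -0.31 and Cd8a at -0.29.

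Neutrophil markers differed between the exposures chiefly through the clean-air pools. In smoke none of 13 differed 1.5-fold, 5 were above 0 and the median was -0.14. In clean air 8 were higher (1.97% of protein-coding genes were) and the median was 0.72. The marker Cxcr1 was at 0.56 in smoke and passed 1.5-fold, at 0.65, after quantile normalization. In the other direction, Retnlg passed it at its lowest value over the processing alternatives, -0.59. S100a8, a subunit of calprotectin, gave 513 and 406 in smoke and 442 and 1286 in clean air. The receptor for granulocyte colony-stimulating factor, Csf3r, gave 365 and 285 against 333 and 697. In both the 4-week clean-air pool was the highest of the 4. The sign of the smoke median turned when genes under the floor were kept (0.16). The platelet chemokine Ppbp gave 1017 and 590 in smoke and 830 and 1260 in clean air, so that it was 1.72-fold lower in one pair and 1.52-fold higher in the other.

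Immediate early genes, which are induced within minutes of a stimulus, were also nearly level within smoke. Of 22, Nr4a3 was the only one at 1.5-fold (247 to 449, 1.82-fold higher) and the median was 0.01, while in clean air 7 were lower and the median was -0.17; the smoke median was -0.05 after median centring. Fos, a subunit of AP-1, gave 1045 and 1034 in smoke and 7319 and 4486 in clean air. Fosb gave 95.1 and 127 against 877 and 281, and the nuclear receptor Nr4a1 1133 and 964 against 14441 and 4907. For these 3 genes both smoke pools lay below both clean-air pools, and the clean-air pools differed from each other more than the smoke pools did.

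Airway secretory genes also differed more in clean air. Of 15 club and goblet cell markers, only Slc26a4 was higher in smoke, none was lower and the median was 0.09, against 5 higher and a median of 0.25 in clean air. Slc26a4, the anion exchanger pendrin, gave 658 and 1053 in smoke and 98.3 and 100 in clean air. Bpifa1, an airway antimicrobial protein, gave 19631 and 21672 against 6341 and 24623, a 3.88-fold difference in clean air alone. The main club cell product Scgb1a1 was at 0.03 and the gel-forming mucins Muc5ac and Muc5b at 0.05 and -0.44. Of 12 alveolar type 2 markers none differed 1.5-fold and the median was 0.06, with surfactant protein D (Sftpd) highest (41064 to 53575, against 24132 and 21898 in clean air).

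Among markers of the alveolar wall, vessels, smooth muscle and cilia 1 gene, Myh11, was at least 1.5-fold lower. Medians in smoke were -0.12 for 10 alveolar type 1 markers, -0.11 for 14 endothelial markers, -0.12 for 12 smooth muscle and pericyte markers, -0.10 for 12 fibroblast and mesothelial markers and -0.16 for 13 ciliated cell markers, where the lower quartile of all protein-coding genes was -0.14. In clean air the medians of the same lists were 0.05, -0.05, 0.28, 0.07 and 0.12. After the median of genes of like genomic span was taken from each gene, a setting added after the data were seen, the smoke medians were -0.11, -0.06, -0.06, -0.10 and -0.06. Myh11, the smooth muscle myosin heavy chain, gave 5360 and 3259 in smoke and 5942 and 5212 in clean air (1.64-fold lower within smoke). Akap5, an anchor of protein kinase A, gave 16890 and 11701 against 20533 and 17779, and the apelin receptor Aplnr 1408 and 979 against 1500 and 1238. In these 3 genes the 4-week smoke pool was the lowest of the 4. Akap5 and Aplnr passed 1.5-fold after median centring, at -0.59 each. Aplnr also passed it, at -0.61, after the median of genes of like genomic span was taken. The type 1 marker Ager and the endothelial marker Pecam1 were at 0.11 and -0.13. None of 17 collagen and elastic fibre genes differed 1.5-fold, with a median of 0.01 (-0.05 after median centring), and Col1a1 gave 3565 and 3578.

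Among the other lowest genes, Clec1a, a C-type lectin receptor of endothelium, gave 3905 and 2324 in smoke and 4836 and 4295 in clean air. Adamts5, an aggrecan-degrading metalloprotease, gave 467 and 267 against 411 and 425. Meox2, a homeobox gene of vascular and mesenchymal cells, gave 283 and 173 against 192 and 221. The folds were 1.68, 1.75 and 1.63, the 4-week smoke pool was the lowest in each, and Adamts5 differed by 1.04-fold in clean air. Sh3rf2, C1qtnf7, Pcdh7, Fcmr and Scel were lower too while differing by under 1.1-fold in clean air, by 1.57-fold (Scel, sciellin) to 1.65-fold (Sh3rf2, a ubiquitin ligase).

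Genes of tissue that can be carried along with lung were examined as well. Among 11 cardiac muscle genes none differed 1.5-fold in smoke and the median was 0.00 (-0.06 after median centring), although the atrial peptide gene Nppa gave 1168 and 873 in smoke and 568 and 2689 in clean air. Of 10 adipose genes 1 was lower, Car3, carbonic anhydrase 3, with 2390 and 1581 in smoke and 1256 and 3171 in clean air, and at -0.52 after cyclic loess and -0.55 after quantile normalization, both under the threshold. The list's median was -0.09, and the adipocyte hormone Adipoq was at -0.05. The 5 skeletal muscle genes lay between 0.05 and 0.33. The part of such tissue in other differences was not tested.

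The difference between 4 and 2 weeks also varied with the genomic span of a gene, the distance from its start to its end including introns. Over 12585 protein-coding genes divided into 5 equal bins by span in the RefSeq table, the median smoke difference was 0.08 in the shortest bin (median span 4401 bases) and 0.04, -0.01, -0.07 and -0.12 in the following ones, the last with a median span of 123129 bases. In clean air the medians were 0.10, 0.08, 0.04, 0.01 and -0.01. Spearman's rho of span with the difference was -0.40 in smoke and -0.23 in clean air, across genes. Of the 99 higher genes 56 were in the shortest bin and 1 in the longest; of the 39 lower genes 8 were in the shortest and 17 in the longest. After the median of its bin was taken from each gene, 87 genes were higher and 40 lower, 7 chaperones were still at 1.5-fold with a list median of 0.64. What moves with span in these arrays was not tested.

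**Figure D5:**
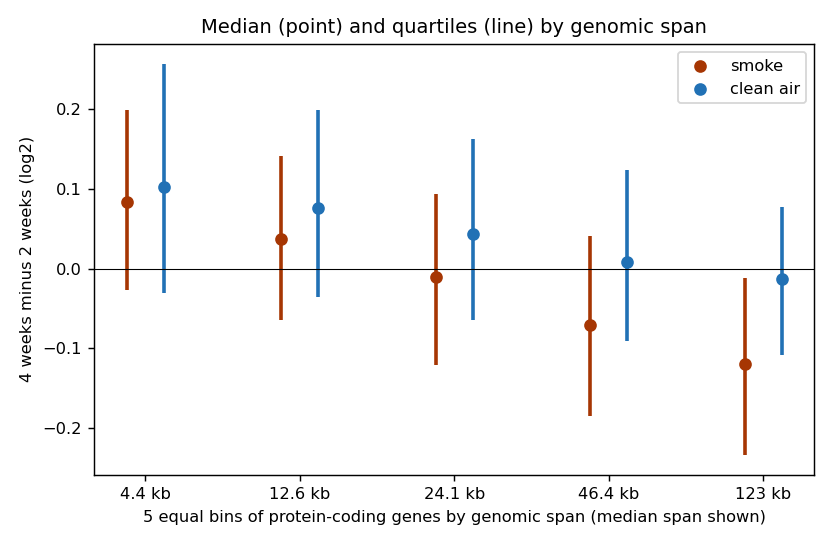
Median (points) and quartiles (lines) of the difference between 4 and 2 weeks (log2) in 5 equal bins of 12585 protein-coding genes ordered by genomic span, for smoke (brown) and clean air (blue). In smoke the median goes from 0.08 in the shortest to -0.12 in the longest bin, and in clean air from 0.10 to -0.01.

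Outside the protein-coding genes, 146 of 5499 genes were higher (2.66%) and 284 lower (5.16%). The highest were immunoglobulin variable segments, the germline pieces that B cells join to make antibody: Ighv13-2 gave 76.4 and 774 in smoke and 112 and 118 in clean air, Igkv9-123 70.7 and 339 against 94.9 and 70.4, and Igkv8-28 55.0 and 202 against 70.4 and 101. Each of the 3 was highest in the 4-week smoke pool. Of 156 variable segments, 6 were higher and 15 lower in smoke, with a median of -0.18 and a range from -0.83 to 3.34, and 6 were higher and 34 lower in clean air. The lowest were the predicted gene Gm22247 (106 to 39.2 in smoke, 92.5 to 42.2 in clean air), the kappa joining segment Igkj3 (748 to 296) and Gm22449 (a log2 difference of -1.32), whose values are shared by 32 other genes.

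The change with duration was also set between exposures, by taking the smoke difference minus the clean-air difference of each gene. By this measure 82 protein-coding genes were at least 1.5-fold higher (0.652%) and 164 lower (1.3%), 246 in all (1.95%). The 6 highest were Hspa1a, Fosb, Atf3, Cyp26b1, Jchain and Mmp12, and the 6 lowest Nppa, Reg3g, Car3, Tst, S100a8 and Bpifa1. Of these 12, Hspa1a, Cyp26b1, Mmp12 and Car3 differed 1.5-fold within smoke. The other 8 differed at least 1.5-fold in clean air and less than that in smoke, as did Tst, a mitochondrial sulfurtransferase, with 480 and 551 in smoke and 265 and 1123 in clean air, and as did Jchain, the joining chain of IgA and IgM, with 66.5 and 76.5 against 133 and 58.6.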

How the data were processed

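RNA of 4 pools of mouse lung was measured on 1 array each, with biotin-labelled cRNA made by the GeneChip WT PLUS kit, per the labels' protocols. The authors deposited linear intensities; the submitters' processing notes name RMA and Affymetrix Expression Console 1.4.1. RMA makes the arrays' distributions alike, so a shift of all genes in a pool is removed. The genome build and the log base behind the values are unknown here, and between 541 and 581 features per array lay above 65535. Samples were grouped by their titles. Log2 was taken, features with 1 symbol were kept (2146 had several, 33206 were unlisted), and symbols were updated by Entrez ID through RefSeq (GRCm38.p6), which matched 22818 features. The highest-mean feature stood for each of 355 genes with several. Differences were counted at 1.5-fold with Python 3.11.15 (pandas 2.3.3, numpy 2.4.6), and the counting was tested on simulated data. Alternatives were median centring, cyclic loess and quantile normalization (limma 3.58.1, R 4.3.3), other floors, feature means, an offset of 32, base e and a 2-fold threshold. The genes, the 43 lists and the rules were chosen with earlier results of these data known. Genes were named by rule: the 12 highest and 12 lowest protein-coding genes and the 3 highest and 3 lowest others, the 6 most positive and 6 most negative against clean air, the 6 largest in each direction shared with clean air or under 1.1-fold there, the 4 largest of each list, and a fixed set; other genes named belong to the lists. The table held 0 columns of other samples.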

Additional observations from a re-analysis of the deposited data

Results flagged for a closer look

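Car3 and Ppbp differed at least 1.5-fold in opposite directions with duration in smoke and in clean air; the difference was not tested, since each group is 1 pool. For Car3, carbonic anhydrase 3 of fat and muscle, the smoke difference was -0.60 and the clean-air difference 1.34, which is -1.93 between them on the log2 scale. Its smoke difference was under the threshold after cyclic loess (-0.52) and quantile normalization (-0.55), with the same direction. For Ppbp, a platelet chemokine, the values were -0.78, 0.60 and -1.39. The array also holds features with several gene symbols or none in the annotation. Of 15750 such features above the floor, 1158 (7.35%) differed at least 1.5-fold within smoke, 232 higher and 926 lower, and 1023 (6.50%) differed in clean air, 211 higher and 812 lower.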

How the results depend on the processing

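No paired analysis was possible because the labels give no replicate numbers and each group is 1 pool. Values below are genes at least 1.5-fold higher and lower. Within smoke (245 and 323, 568 in all), the counts were 159 higher with the floor at the 60th percentile, 163 higher with 32 added to each signal, 208 lower after quantile normalization, and 420 higher of 876 in all with no floor. They were 46 and 73 (119) with base e, 23 and 47 (70) at 2-fold, and 99 and 39 (138) for protein-coding genes alone. For protein-coding genes in smoke, 80 were lower after median centring and 23 after cyclic loess or quantile normalization, 176 were higher with no floor, and base e left 28 and 4. In clean air (334 and 406, 740 in all), the counts were 107 and 126 (233) with base e, 51 and 88 (139) at 2-fold, 249 lower at the 60th percentile, and 267 in all with 19 lower for protein-coding genes. Of these protein-coding genes base e left 69 and 6, 12 were lower at the 60th percentile and 53 with no floor, and 162 and 32 differed after the median of the span bin was taken, a setting chosen after seeing the data. For the smoke minus the clean-air difference (631 and 302, 933 in all), the counts were 417 and 492 after median centring, 300 and 188 (488) at the 60th percentile, 389 and 184 (573) with 32 added, 206 and 81 (287) with base e, and 1246 and 548 (1794) with no floor. Of the 209 genes named by rule, 200 stayed on the same side of 1.5-fold after median centring, 200 after cyclic loess, 199 after quantile normalization and 173 with base e. No gene at 1.5-fold turned its sign under these alternatives, and the medians of 11 of the 43 lists did under at least 1, all of them between -0.14 and 0.06 as reported. With 1 pool per group, the spread between mice and between arrays is unknown, and no count here has an error.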
